A study of Mus musculus with 11 samples.

Results

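Spic, Kit, Pglyrp1, Cnga4, Cd3d, Ccbe1 and Pla2g4e are 7 genes with large increases in mouse embryonic stem (ES) cells kept in 2i/LIF. They were chosen by their log2 differences between 2i/LIF and the other media in earlier results of these same arrays, so those differences are given below as a description, with no test. All 7 were found on the array through the RefSeq accessions of its probes, out of 20964 genes that could be named and 16279 that could be tested. The tested genes are those with a probe well above background on 3 arrays or more, which all 7 genes had. Cnga4 and Ccbe1 passed this filter through the 2i/LIF arrays alone.

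RNA of unsorted ES cells was hybridised to 11 Agilent one-colour arrays. The cells had spent 3 passages or more in 2i/LIF (5 arrays), KOSR/LIF (3 arrays) or serum/LIF (3 arrays). Every medium held LIF, the cytokine that sustains self-renewal through STAT3. 2i/LIF adds inhibitors of MEK and of GSK3, KOSR/LIF has a defined serum replacement, and serum/LIF is the classical medium. The lines were E14, HVJu5.1 and HVJu9.3, all of the 129/Ola background, and no group carried a treatment beyond its medium. For 2i/LIF replicates 1 to 4 the line in the title is not the line in the source name, so no result is given by line. In KOSR/LIF and serum/LIF title and source name agree and each line occurs once. The main test did not pair these arrays by line, which entered only as a block in alternatives. The study asked whether culture conditions support distinct states of ES cells. The labels do not say whether repeated samples of 1 line in 2i/LIF were grown separately. The p-values therefore measure the spread between these samples, which may be technical.

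As background, the inhibitors of 2i block the ERK branch of growth factor signalling and stabilise beta-catenin, and ES cells in 2i resemble the naive epiblast of the blastocyst. The 7 genes belong to unrelated families, and several are best known outside the embryo. Spic is an ETS transcription factor of red pulp macrophages, and Kit is the receptor for stem cell factor. Pglyrp1 is a secreted peptidoglycan-binding protein of neutrophils, and Cd3d is a chain of the T cell receptor complex. Cnga4 is a modulatory subunit of the cyclic nucleotide-gated channel of olfactory neurons. Ccbe1 promotes maturation of the lymphatic growth factor VEGF-C, and Pla2g4e is a calcium-dependent N-acyltransferase of the cytosolic phospholipase A2 family.

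Upstream sequences are shown for the 4 genes whose 250 bases before the transcription start held a match to a searched motif. They come from RefSeq annotation of assembly GRCm38.p6, run 5′ to 3′ on the gene's strand and end at the base before the start. Capitals mark the motif matches. A promoter entry was found for 6 of the 7 genes, all but Ccbe1, and the first of 2 entries was used for Kit.
Spic promoter, chr10:88683024-88683273 (- strand): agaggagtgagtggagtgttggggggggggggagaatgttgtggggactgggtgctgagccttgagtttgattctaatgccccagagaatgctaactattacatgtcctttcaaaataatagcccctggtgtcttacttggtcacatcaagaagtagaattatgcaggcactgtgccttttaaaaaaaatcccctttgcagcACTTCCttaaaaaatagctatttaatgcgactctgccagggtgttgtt
Kit promoter, chr5:75574737-75574986 (+ strand): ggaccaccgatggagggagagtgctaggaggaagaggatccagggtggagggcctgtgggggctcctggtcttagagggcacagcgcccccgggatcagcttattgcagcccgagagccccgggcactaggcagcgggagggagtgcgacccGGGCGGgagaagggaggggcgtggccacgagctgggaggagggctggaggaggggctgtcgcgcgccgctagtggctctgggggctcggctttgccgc
Pglyrp1 promoter, chr7:18884440-18884689 (+ strand): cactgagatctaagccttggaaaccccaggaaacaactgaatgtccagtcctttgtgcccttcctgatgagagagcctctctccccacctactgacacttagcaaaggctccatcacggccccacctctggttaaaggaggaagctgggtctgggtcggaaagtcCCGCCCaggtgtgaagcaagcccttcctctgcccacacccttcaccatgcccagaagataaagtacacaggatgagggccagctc
Cd3d promoter, chr9:44981536-44981785 (+ strand): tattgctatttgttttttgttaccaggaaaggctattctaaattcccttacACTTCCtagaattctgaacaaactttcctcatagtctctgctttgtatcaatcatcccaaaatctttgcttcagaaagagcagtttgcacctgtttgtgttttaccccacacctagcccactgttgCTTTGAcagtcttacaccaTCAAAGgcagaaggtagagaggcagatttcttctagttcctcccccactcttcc
Positions are counted back from the start, with the adjacent base as -1. The ETS letters GGAAGT matched in Spic at -48 to -43 (reverse strand) and in Cd3d at -199 to -194 (reverse strand). The TCF/LEF core CTTTGA matched at 2 places in Cd3d, at -73 to -68 on the forward strand and at -54 to -49 on the reverse strand. The KLF/SP box GGGCGG matched in Kit at -98 to -93 (forward) and in Pglyrp1 at -85 to -80 (reverse). On both strands, CTTTGA was in 1 of the 6 windows and in 13.8% of all 32851 promoters of the same length. GGAAGT was in 2 of 6 and in 19.7% of all promoters, and GGGCGG in 2 of 6 and in 32.7%. The 6 windows held no match to the STAT site TTCCNGGAA (0.913% of all promoters), the ESRRB half-site AAGGTCA (4.08%), the E-box CACGTG (6.02%) or the TATA box TATAAA (12.4%). No motif was therefore shared by more than 2 of the genes in these windows. The ETS letters can overlap the STAT letters, and the TCF/LEF core the ESRRB half-site, but the matches found did not overlap. A match is only a description of the letters.

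The level of a gene is the log2 of its processed intensity minus the array's 75th percentile, so a level of 0 is as bright as that percentile. Levels can be compared between arrays for 1 probe, but not between probes. KOSR/LIF replicate 3 was a dim array: its 75th percentile of intensity was 65.3, where the other 10 arrays had 176 to 538. On it 43.7% of probes were well above background, against 53.7% to 72.6% elsewhere. Differences from KOSR/LIF are given with that array, and without it for bounds, Pglyrp1 and Cd3d. Without it Spic stood 4.86 and Kit 1.19 above KOSR/LIF. All 7 ES cell markers, among them Pou5f1 and Nanog, were well above background on all 11 arrays. A lower level in such bulk RNA can be fewer cells with the transcript or less of it in each cell, and the 2 cannot be told apart.

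**Figure D1:**
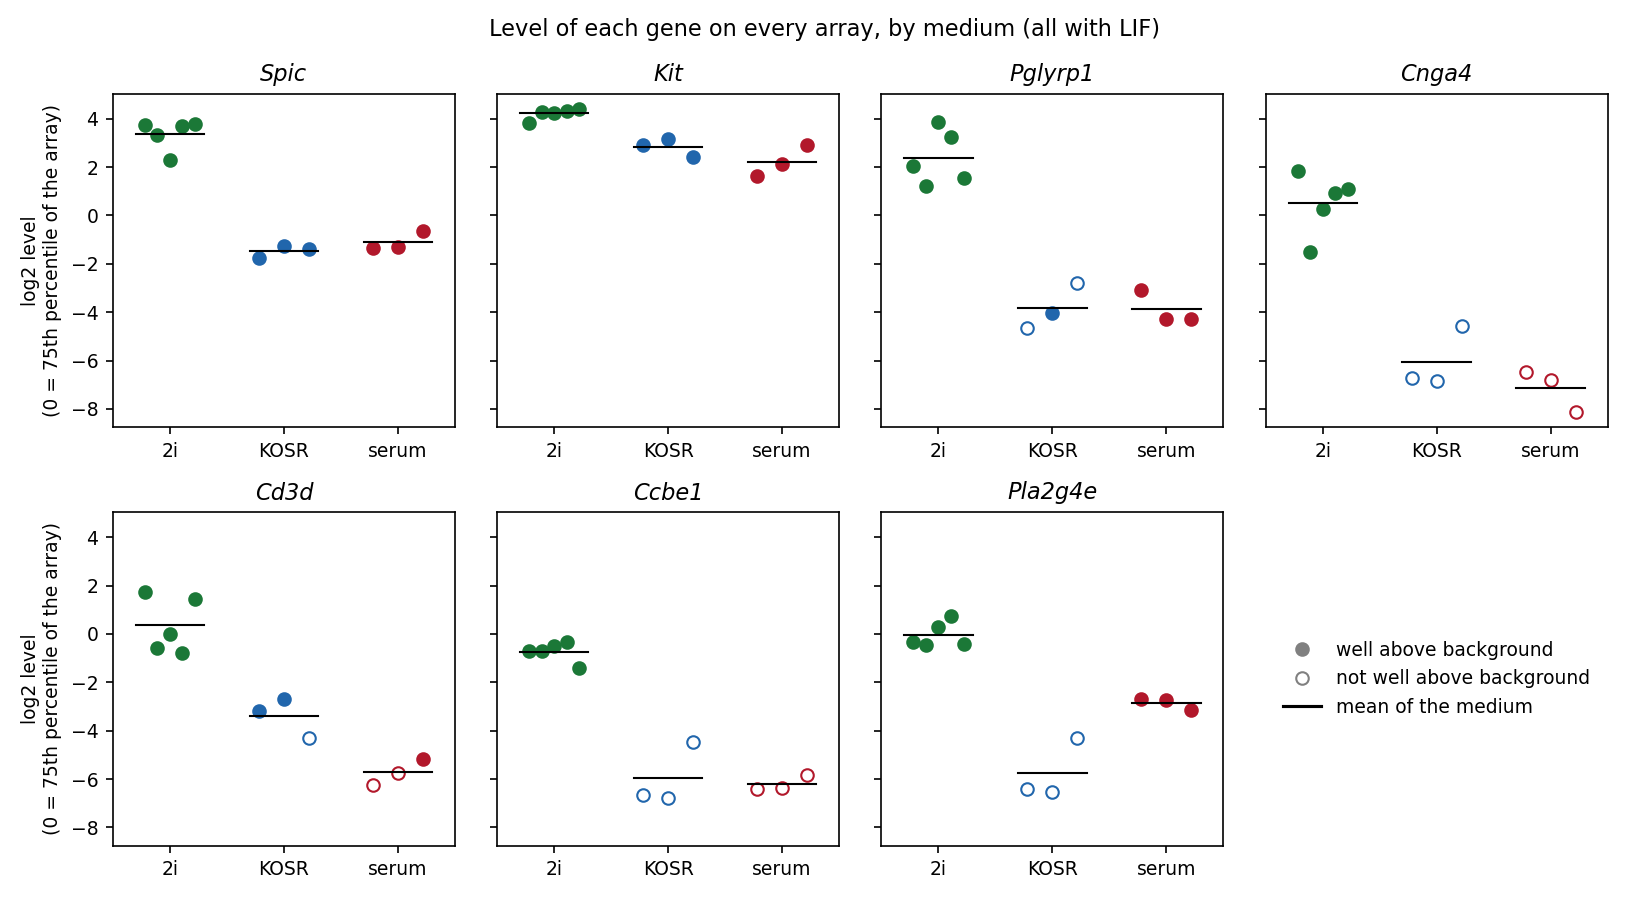
Log2 level of each of the 7 genes on every array (vertical axis, 0 being the array's 75th percentile), by medium on the horizontal axis, with points for arrays, open where the probe was not well above background, and bars for means. In all 7 panels the 5 points of 2i/LIF lie above every point of KOSR/LIF and serum/LIF, and levels should be compared within a panel only.

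Spic had log2 levels of 3.72, 3.33, 2.28, 3.71 and 3.78 on the 5 arrays of 2i/LIF, against -1.74, -1.25 and -1.40 in KOSR/LIF and -1.34, -1.30 and -0.62 in serum/LIF. The lowest 2i/LIF array, replicate 3, was 2.91 above the highest serum/LIF array on this scale. The probe was well above background on all 11 arrays, so both sides of each difference were measured. The difference was 4.83 ± 0.35 between 2i/LIF and KOSR/LIF (SE, 28.4-fold) and 4.45 ± 0.35 between 2i/LIF and serum/LIF (21.9-fold). By size of increase over KOSR/LIF, Spic ranked 1 of the 11546 genes that were well above background on every array of both media. Over serum/LIF it ranked 6 of 12892.

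SPIC has been reported to bind genes of choline and betaine breakdown in mouse ES cells, a route that feeds methyl groups into the methionine cycle. Of 15 one-carbon enzymes listed, 14 were tested and 4 rose in 2i/LIF against serum/LIF, with none lower (1 at an unadjusted p under 0.05). The list's median log2 difference was 0.45, beside 0.03 over all genes tested, of which 6.74% were called higher. The list was made knowing that Bhmt and Dmgdh had risen. Bhmt2, a homocysteine methyltransferase related to Bhmt, had levels of 2.34, 1.88, 1.00, 2.13 and 2.44 in 2i/LIF, against -2.97, -1.34 and -3.14 in KOSR/LIF and -4.40, -4.02 and -3.69 in serum/LIF. Its 2i/LIF arrays thus lay above all others, as those of Spic did, and its lowest 2i/LIF array was replicate 3 for both genes. Bhmt2 rose by 6.0 over serum/LIF (limma, adjusted p = 6.43e-06). Bhmt, which remakes methionine from betaine, rose by 6.17 (adjusted p = 2.94e-05), and Dmgdh, a dimethylglycine dehydrogenase, by 6.32 (adjusted p = 2.62e-05). Methionine synthase, Mtr, rose by 0.90 (adjusted p = 0.00576). Mtr also rose in KOSR/LIF against serum/LIF (0.95 ± 0.21, adjusted p = 0.0268). In 2i/LIF against KOSR/LIF it stood at -0.05 ± 0.19 (adjusted p = 0.897).

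Bhmt also rose in KOSR/LIF against serum/LIF (3.66 ± 0.64, adjusted p = 0.00975). Spic stood at -0.37 ± 0.39 in that comparison (adjusted p = 0.642), and the difference between the 2 genes was not tested. Close relatives of Spic and genes of red pulp macrophages formed another list. Of its 10 genes 6 were tested, none was called higher in 2i/LIF against serum/LIF (0 at an unadjusted p under 0.05) and 3 were called lower, with a median of -1.25, beside 9.98% of all genes called lower. Spib, an ETS factor of the same SPI group, fell by 2.15 (adjusted p = 0.0191), and was well above background on 3 of 5 arrays of 2i/LIF. Slc40a1, the iron exporter of red pulp macrophages, fell by 3.70 (adjusted p = 0.000107), with 2i/LIF levels of -3.67 to -1.69 and serum/LIF levels of 0.69 to 1.42. Irf8, a myeloid transcription factor, fell by 2.66 (adjusted p = 0.00403). It was well above background on 2 of 5 arrays of 2i/LIF, and once dim signals were raised to the dimmest signal that passed the background test the difference was -2.40. Hmox1, a haem oxygenase, stood at -0.16 ± 0.31 (adjusted p = 0.843).

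Kit had log2 levels of 3.84, 4.29, 4.24, 4.32 and 4.42 in 2i/LIF, against 2.92, 3.14 and 2.43 in KOSR/LIF and 1.65, 2.11 and 2.91 in serum/LIF. The 2i/LIF arrays lay within 0.57 of one another and above the rest, while KOSR/LIF and serum/LIF overlapped. The difference was 1.39 ± 0.29 between 2i/LIF and KOSR/LIF (2.63-fold) and 2.00 ± 0.29 between 2i/LIF and serum/LIF (4.01-fold). With normexp background correction they were 1.5 and 1.95. Kit ranked 314 of 11546 measured genes in the comparison with KOSR/LIF and 215 of 12892 in that with serum/LIF. As Kit was picked on such differences, these ranks are a description.

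The ligand of Kit was close to the limit of detection. Kitl, which encodes stem cell factor, was well above background on 1 of 5 arrays in 2i/LIF, 2 of 3 in KOSR/LIF and 3 of 3 in serum/LIF. Its log2 difference between 2i/LIF and serum/LIF was -1.13 ± 0.40 (adjusted p = 0.0815). Of 18 tested genes of the ligand and signalling list, 2 rose and 2 fell against serum/LIF, beside 6.74% and 9.98% of all genes. The list's median was 0.06. Mitf, a melanocyte and mast cell transcription factor regulated through KIT signalling, rose by 2.03 (adjusted p = 0.00103). The regulatory PI3-kinase subunit Pik3r1 rose by 1.29 (adjusted p = 0.0313). The adaptor Grb7 fell by 2.18 (adjusted p = 0.0126) and Spred1, an inhibitor of RAS to ERK signalling, by 1.45 (adjusted p = 0.00229).

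Of the 7 tested receptors of the class of Kit and the VEGF receptor class, none was called higher against serum/LIF (0 at an unadjusted p under 0.05), and Flt1, a VEGF receptor, fell by 4.06 (adjusted p = 0.000159). Flt1 was well above background on 1 of 5 arrays of 2i/LIF, and its difference with dim signals raised was -3.85. Kdr, another VEGF receptor and the gene next to Kit, stood at 0.41 ± 0.42 (adjusted p = 0.635). Pdgfra, on its other side, stood at 0.48 ± 0.84 (adjusted p = 0.809). Among 12 genes of germ cell precursors, where Kit is a known surface receptor, 3 rose and 1 fell, beside 6.74% and 9.98% of all genes. Prdm14, a regulator of naive and germ cell fate, rose by 1.46 (adjusted p = 0.00233), and the alkaline phosphatase gene Alpl by 1.70 (adjusted p = 0.000631). Dazl, whose germ cell protein binds RNA, rose by 2.96 (adjusted p = 0.00663), whereas the germ cell helicase gene Ddx4 fell by 2.20 (adjusted p = 0.000385). Dazl also rose in KOSR/LIF against serum/LIF (3.58 ± 0.71, adjusted p = 0.0169). In 2i/LIF against KOSR/LIF it stood at -0.62 ± 0.63 (adjusted p = 0.58).

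Pglyrp1 had the highest increase over serum/LIF of the genes well above background on every array of both media, ranking 1 of 12892. Its log2 levels were 2.03, 1.23, 3.85, 3.24 and 1.54 in 2i/LIF, against -4.65, -4.03 and -2.80 in KOSR/LIF and -3.08, -4.27 and -4.30 in serum/LIF. The 2i/LIF arrays spanned 2.62 on the log2 scale among themselves (6.14-fold), and all lay above the arrays of the other media. The probe was well above background on all 2i/LIF and serum/LIF arrays and on 1 of 3 KOSR/LIF arrays. The difference was 6.20 ± 0.62 between 2i/LIF and KOSR/LIF, or 5.99 with the dim signals raised and 6.72 without KOSR/LIF replicate 3. It was 6.26 ± 0.62 between 2i/LIF and serum/LIF (76.4-fold). The lowest differences across the alternatives were 3.77 from KOSR/LIF and 4.27 from serum/LIF.

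Other peptidoglycan recognition genes were near the limit of detection. Pglyrp2, an amidase that cleaves peptidoglycan, was well above background on 2 of 5 arrays of 2i/LIF and on 1 of 3 of serum/LIF, at a difference of 0.45 ± 0.49 (adjusted p = 0.659). Pglyrp3, a bactericidal relative, stood at -0.22 ± 0.45 (adjusted p = 0.843). Of 4 tested genes of the family and its receptors 1 was called, Tnfrsf1a, the TNF receptor to which PGLYRP1 is known to bind. Tnfrsf1a rose by 1.38 over serum/LIF (adjusted p = 0.0479), where 6.74% of all genes were called higher. Of 11 secreted defence genes such as Camp and Ltf only 3 could be tested, and none of the 3 was called in either direction (0 at an unadjusted p under 0.05).

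Cnga4 was well above background on all 5 arrays of 2i/LIF and on no other array. Its log2 levels in 2i/LIF were 1.82, -1.51, 0.25, 0.92 and 1.08, the widest spread of the 7 genes at 3.33 (10.1-fold), with replicate 2 the lowest. The signals on the KOSR/LIF arrays, at -6.73, -6.85 and -4.55, and on the serum/LIF arrays, at -6.47, -6.78 and -8.13, were not well above background and have no order. A bound was therefore set against the lowest signal well above background. Cnga4 was at least 19.7-fold higher in 2i/LIF than in KOSR/LIF, or at least 32.2-fold without KOSR/LIF replicate 3. It was at least 45.2-fold higher than in serum/LIF. These bounds hold for the processing used here. Across the alternatives the lowest log2 differences were 2.57 from KOSR/LIF and 3.18 from serum/LIF. Of 16279 genes tested, 13 (0.0799%) were well above background on every 2i/LIF array and on no other, and Ccbe1 was another of them.

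CNGA4 does not form a channel alone but joins CNGA2 and CNGB1 in olfactory neurons. Of the 5 tested channel family genes 0 were called in 2i/LIF against serum/LIF by limma, beside 16.7% of all genes. At an unadjusted p under 0.05, 2 of the 5 were higher. Cnga2, the main olfactory subunit, stood at 0.59 ± 0.25 (adjusted p = 0.151) and the cone subunit Cnga3 at 1.22 ± 0.44 (adjusted p = 0.0822). Cnga2 was well above background on all arrays of 2i/LIF and of serum/LIF. In 2i/LIF against KOSR/LIF 1 of the 5, Cnga2, was called higher at 0.93 ± 0.25 (adjusted p = 0.0275), where 5.95% of all genes were. Of 7 tested genes of olfactory transduction, Omp, the olfactory marker protein, rose by 1.56 over serum/LIF (adjusted p = 0.017). Gng13, a G protein gamma subunit, fell by 2.26 (adjusted p = 0.000559).

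The levels of Cd3d were 1.74, -0.56, 0.01, -0.77 and 1.45 in 2i/LIF, against -3.20, -2.69 and -4.28 in KOSR/LIF and -6.23, -5.77 and -5.18 in serum/LIF. The 2i/LIF arrays lay above all others, and 2i/LIF replicates 1 and 5 stood above the other 2i/LIF arrays. The probe was well above background on 5 of 5, 2 of 3 and 1 of 3 arrays of the 3 media in that order. The difference was 3.76 ± 0.60 between 2i/LIF and KOSR/LIF (13.6-fold) and 6.10 ± 0.60 between 2i/LIF and serum/LIF. With the dim signals raised these were 3.13 and 4.99, and the lowest values across the alternatives were 1.85 and 2.68. Without KOSR/LIF replicate 3 the difference from KOSR/LIF was 3.31. The serum/LIF signals of replicates 1 and 2 and that of KOSR/LIF replicate 3 were not well above background, so KOSR/LIF and serum/LIF have no full order.

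Of the partners of Cd3d in the T cell receptor complex 2 were tested. Limma called 0 of them in 2i/LIF against serum/LIF (0 at an unadjusted p under 0.05), beside 16.7% of all genes. Cd3e, the gene beside Cd3d that encodes a partner chain, had levels of 2.33, 1.76, 1.92, 1.77 and 2.32 in 2i/LIF, against 1.73, 1.68 and 2.38 in KOSR/LIF and 1.56, 1.53 and 1.87 in serum/LIF. It was well above background on every array in all 3 media, and its groups overlapped. Its difference from serum/LIF was 0.37 ± 0.25 (adjusted p = 0.405). The zeta chain gene Cd247 stood at 0.19 ± 0.55 (adjusted p = 0.894), and Cd3g was well above background on 2 of 11 arrays and was not tested.

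Of 13 tested genes of T cell signalling and identity, 2 rose and 2 fell against serum/LIF, beside 6.74% and 9.98% of all genes. Zap70, the kinase that docks on the CD3 and zeta chains, rose by 1.51 (adjusted p = 0.003), and the adhesion receptor gene Cd2 by 1.64 (adjusted p = 0.00849). The kinase Fyn fell by 1.16 (adjusted p = 0.0395). Bcl11b, a T lineage commitment factor, was well above background on no array of 2i/LIF. It was at least 3.40-fold lower, with a fitted difference of -2.60 (adjusted p = 0.00329). Lck, the kinase upstream of Zap70, stood at -0.10 ± 0.33 (adjusted p = 0.906) and was well above background on every array of 2i/LIF and serum/LIF. Zap70 also rose in KOSR/LIF against serum/LIF (1.61 ± 0.32, adjusted p = 0.0166).

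Ccbe1 levels in 2i/LIF were -0.71, -0.69, -0.49, -0.34 and -1.39. In KOSR/LIF they were -6.66, -6.80 and -4.47, and in serum/LIF -6.41, -6.36 and -5.82, none of them well above background. Ccbe1 was at least 8.36-fold higher in 2i/LIF than in KOSR/LIF, or at least 13.7-fold without KOSR/LIF replicate 3. It was at least 17.2-fold higher than in serum/LIF. For this gene the lowest log2 differences across the alternatives were 1.37 from KOSR/LIF and 1.89 from serum/LIF. A second probe of Ccbe1 gave levels of -3.56, -2.58, -3.66, -3.05 and -3.64 in 2i/LIF. It read -6.22, -6.22 and -3.29 in KOSR/LIF and -5.22, -6.07 and -5.89 in serum/LIF, again not well above background. The means on that probe differed by 2.43 between 2i/LIF and serum/LIF and by 1.95 between 2i/LIF and KOSR/LIF. Those are smaller than the fitted 5.47 and 5.25 of the first probe. KOSR/LIF replicate 3 fell inside the 2i/LIF range on the second probe, and no fold is given for it.

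CCBE1 helps the protease ADAMTS3 to cleave the VEGF-C precursor, which then acts on the receptor FLT4. Of 12 lymphatic growth factor genes listed, 8 were tested, none was higher in 2i/LIF against serum/LIF (0 at an unadjusted p under 0.05) and 4 were lower, at a median of -1.60, beside 9.98% of all genes called lower. Vegfc itself was well above background on all arrays of 2i/LIF and serum/LIF and stood at 0.77 ± 0.46 (adjusted p = 0.341). Adamts14, a relative of Adamts3, fell by 1.64 (adjusted p = 0.015), and the VEGF-C co-receptor gene Nrp2 by 1.71 (adjusted p = 0.0447). The lymphatic surface glycoprotein gene Pdpn fell by 1.83 (adjusted p = 0.00478). Sox18, a lymphatic transcription factor, fell by 2.14 (adjusted p = 0.0189), and its difference with dim signals raised was -1.55. Nrp2 was lowest in KOSR/LIF, so that against KOSR/LIF it was higher in 2i/LIF, by 2.34 (adjusted p = 0.0109).

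Pla2g4e had log2 levels of -0.35, -0.44, 0.30, 0.74 and -0.43 in 2i/LIF, against -6.40, -6.53 and -4.32 in KOSR/LIF and -2.69, -2.73 and -3.13 in serum/LIF. It was well above background on all 5 arrays of 2i/LIF, on none of KOSR/LIF and on all 3 of serum/LIF. The 2i/LIF arrays lay above all serum/LIF arrays, and KOSR/LIF replicate 3 was too dim to be placed against serum/LIF. Pla2g4e was at least 13.5-fold higher in 2i/LIF than in KOSR/LIF, or at least 22-fold without KOSR/LIF replicate 3. Its lowest log2 difference from KOSR/LIF across the alternatives was 1.90. Between 2i/LIF and serum/LIF the difference was 2.81 ± 0.48 (7.03-fold), which ranked 64 of 12892. That rank is a description, since Pla2g4e was picked on such differences.

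Pla2g4e lies in a cluster of cytosolic phospholipase A2 genes. Of the 7 tested family members 2 were called in 2i/LIF against serum/LIF, beside 16.7% of all genes. Pla2g4f, which lies beyond Pla2g4d in the cluster, rose by 2.17 (adjusted p = 6.74e-05). Its levels were -2.98 to -2.42 in 2i/LIF, against -3.32 to -2.68 in KOSR/LIF and -4.97 to -4.57 in serum/LIF, where 1 of 3 arrays was well above background, and the difference was 1.79 with dim signals raised. The KOSR/LIF array at -2.68, replicate 3, was not well above background, and the other KOSR/LIF arrays lay below every 2i/LIF array. Pla2g4a, the arachidonate-releasing enzyme of the family, fell by 4.49 (adjusted p = 0.000133), or by 3.53 with dim signals raised.

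PLA2G4E makes the precursors of N-acylethanolamines such as anandamide, an agonist of the cannabinoid receptor. Of 12 tested genes of this pathway 1 rose and 3 fell against serum/LIF, where 6.74% of all genes rose and 9.98% fell. Napepld, the phospholipase that releases N-acylethanolamines, rose by 1.06 (adjusted p = 0.00689). Against KOSR/LIF it rose by 1.64 (adjusted p = 0.00063). Cnr1, the cannabinoid receptor gene, was at least 9.59-fold lower in 2i/LIF against serum/LIF and at least 6.26-fold lower against KOSR/LIF. The fitted differences were -5.04 (adjusted p = 2.24e-06) and -4.43 (adjusted p = 1.28e-05). The genes for the enzymes that make 2-arachidonoylglycerol, Dagla and Daglb, fell by 1.87 (adjusted p = 0.00758) and 1.08 (adjusted p = 0.00731). Dagla was well above background on 2 of 5 arrays of 2i/LIF, and with dim signals raised its difference was -1.46.

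**Figure D2:**
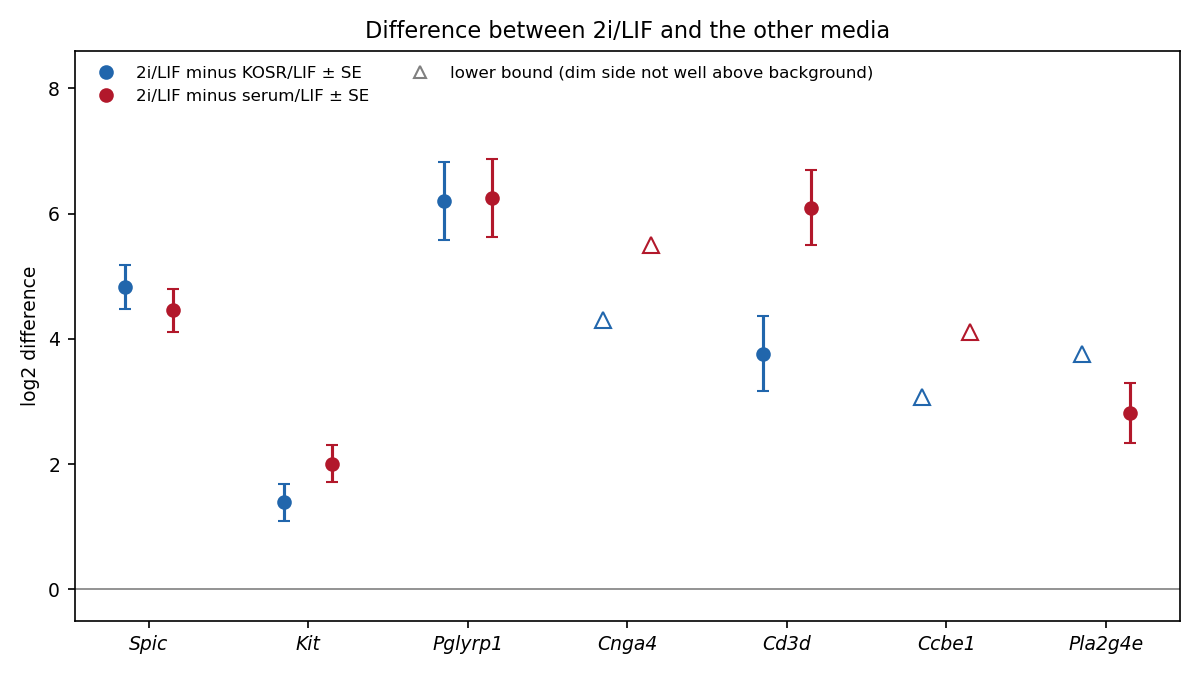
Log2 differences of the 7 genes between 2i/LIF and KOSR/LIF and between 2i/LIF and serum/LIF (vertical axis), as circles with SE bars where the probe was well above background on an array of both media, and as open triangles at the lower bound where it was on no array of the dimmer medium. Kit has the smallest plotted differences, 1.39 and 2.00, and Cnga4 and Ccbe1 have bounds alone.

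Each of the 7 genes had every 2i/LIF array above every array of the other media, as did 4.8% of all genes tested, which follows from how they were picked. Over all genes, 16.7% were called in 2i/LIF against serum/LIF. In 2i/LIF against KOSR/LIF 14.7% were called, 5.95% higher and 8.72% lower. Scan day, read from the scanner files, held several media on each of 3 days and was examined as a batch. Within scan day 1 the differences from serum/LIF were 4.32 for Spic, 2.41 for Kit, 7.21 for Pglyrp1, 5.61 for Cd3d and 3.23 for Pla2g4e. Within scan day 3, which held 1 serum/LIF array, they were 4.38 for Spic, 1.22 for Kit, 6.08 for Pglyrp1, 6.77 for Cd3d and 2.74 for Pla2g4e. Each kept its direction, which is a description for genes picked on these differences. For Kit, Pglyrp1 and Pla2g4e the day 3 value was the lower. Against KOSR/LIF, Spic stood at 4.49 within scan day 1 and at 4.73 within scan day 2, with 1 array of either medium, and Kit at 1.26 and 1.86.

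Within 2i/LIF the 7 genes did not rank the arrays alike. Pglyrp1 averaged 3.54 on scan day 1 (replicates 3 and 4), 1.23 on day 2 (replicate 2) and 1.78 on day 3 (replicates 1 and 5). Cd3d ran the other way between days 1 and 3, with -0.38 on day 1, -0.56 on day 2 and 1.60 on day 3. Cnga4 was lowest on day 2 at -1.51, and had 0.59 on day 1 and 1.45 on day 3. Ccbe1 had -0.42, -0.69 and -1.05 on days 1, 2 and 3, and Pla2g4e 0.52, -0.44 and -0.39. Kit differed least between days, at 4.28, 4.29 and 4.13. Spic had 2.99, 3.33 and 3.75. With 1 or 2 arrays a day and lines that the labels give in different ways, day, line and culture cannot be told apart here.

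**Figure D3:**
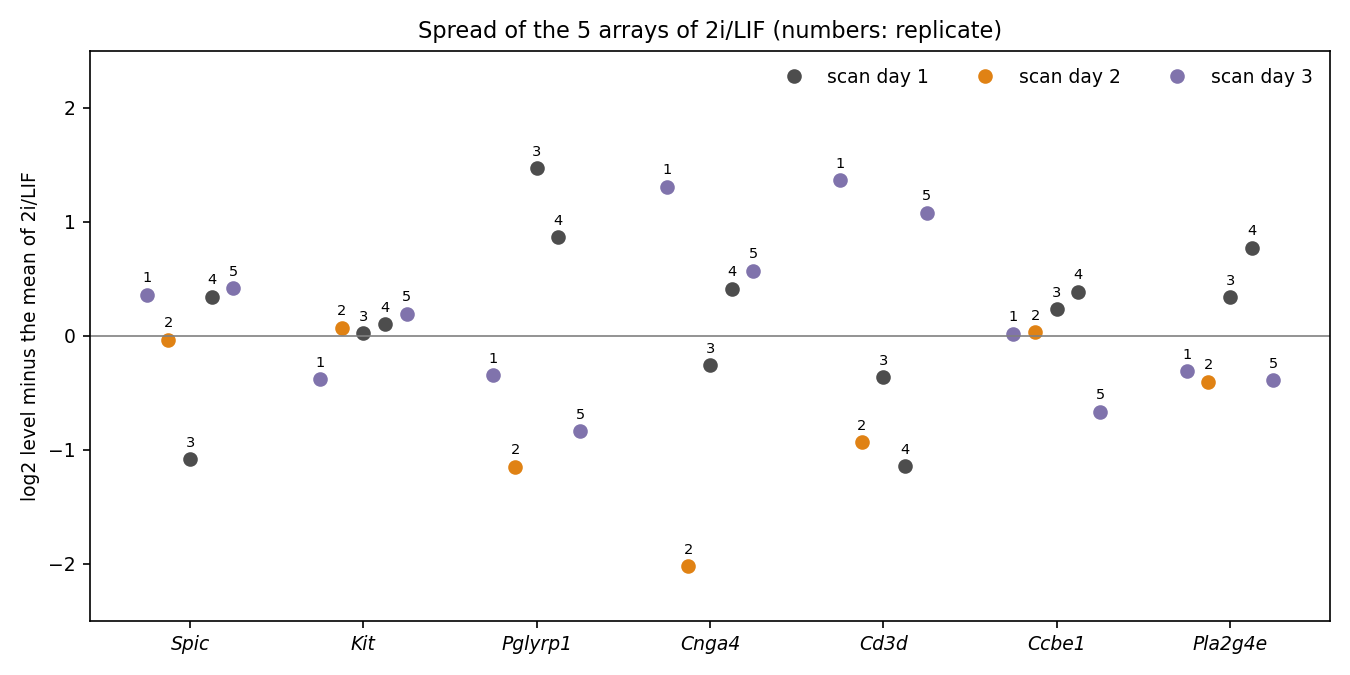
Log2 level of each gene on the 5 arrays of 2i/LIF minus their mean (vertical axis), coloured by scan day and numbered by replicate. Replicates 1 and 5 are the highest for Cd3d and replicates 3 and 4 the highest for Pglyrp1, while the Kit points lie within 0.57 of one another.

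KOSR/LIF against serum/LIF is the comparison that the choice of genes did not use, and it was tested. Its arrays also served in the comparisons with 2i/LIF on which the genes were picked, so it is not independent of that choice. Of the 7 genes 1 passed, Pla2g4e, which was lower in KOSR/LIF. Over all genes 4.58% passed (745 of 16279), 2.37% higher in KOSR/LIF and 2.21% lower. Of these calls 51.8% were higher in KOSR/LIF, against 38% with normexp background correction and 41.1% with quantile normalization. Pla2g4e was at least 1.92-fold lower in KOSR/LIF than in serum/LIF, or at least 3.13-fold without KOSR/LIF replicate 3. The fitted difference was -2.89 ± 0.53 (limma over 11 arrays, adjusted p = 0.0127), and it was -3.75 within scan day 1 (adjusted p = 0.0118). It was no longer called when serum/LIF replicate 1 was left out (-2.81, adjusted p = 0.058) and with normexp background correction, under which the difference was -0.15 (adjusted p = 0.825).

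Cd3d did not pass in KOSR/LIF against serum/LIF, at 2.33 ± 0.67 (adjusted p = 0.0765), or 1.87 with dim signals raised. Without KOSR/LIF replicate 3 it was 2.78 (adjusted p = 0.0678). With scan day as a block it did pass (3.09, adjusted p = 0.00536), and likewise within scan day 1 (3.05, adjusted p = 0.0238), with slide as a block (3.27, adjusted p = 0.0129) and with the line of the source names as a block (2.33, adjusted p = 0.0495). Kit stood at 0.61 ± 0.33 (adjusted p = 0.354), Spic at -0.37 ± 0.39 (adjusted p = 0.642) and Pglyrp1 at 0.05 ± 0.70 (adjusted p = 0.973). Within scan day 1 these were 1.15 for Kit (adjusted p = 0.0592), -0.17 for Spic and -0.67 for Pglyrp1. Cnga4 and Ccbe1 were not well above background in either medium, so no fold is given for them. The order of the media was thus 2i/LIF highest for all 7. For Pla2g4e serum/LIF came next in the main fit, a call lost with normexp and without serum/LIF replicate 1. KOSR/LIF and serum/LIF did not differ beyond their spread for Spic, Kit and Pglyrp1.

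**Figure D4:**
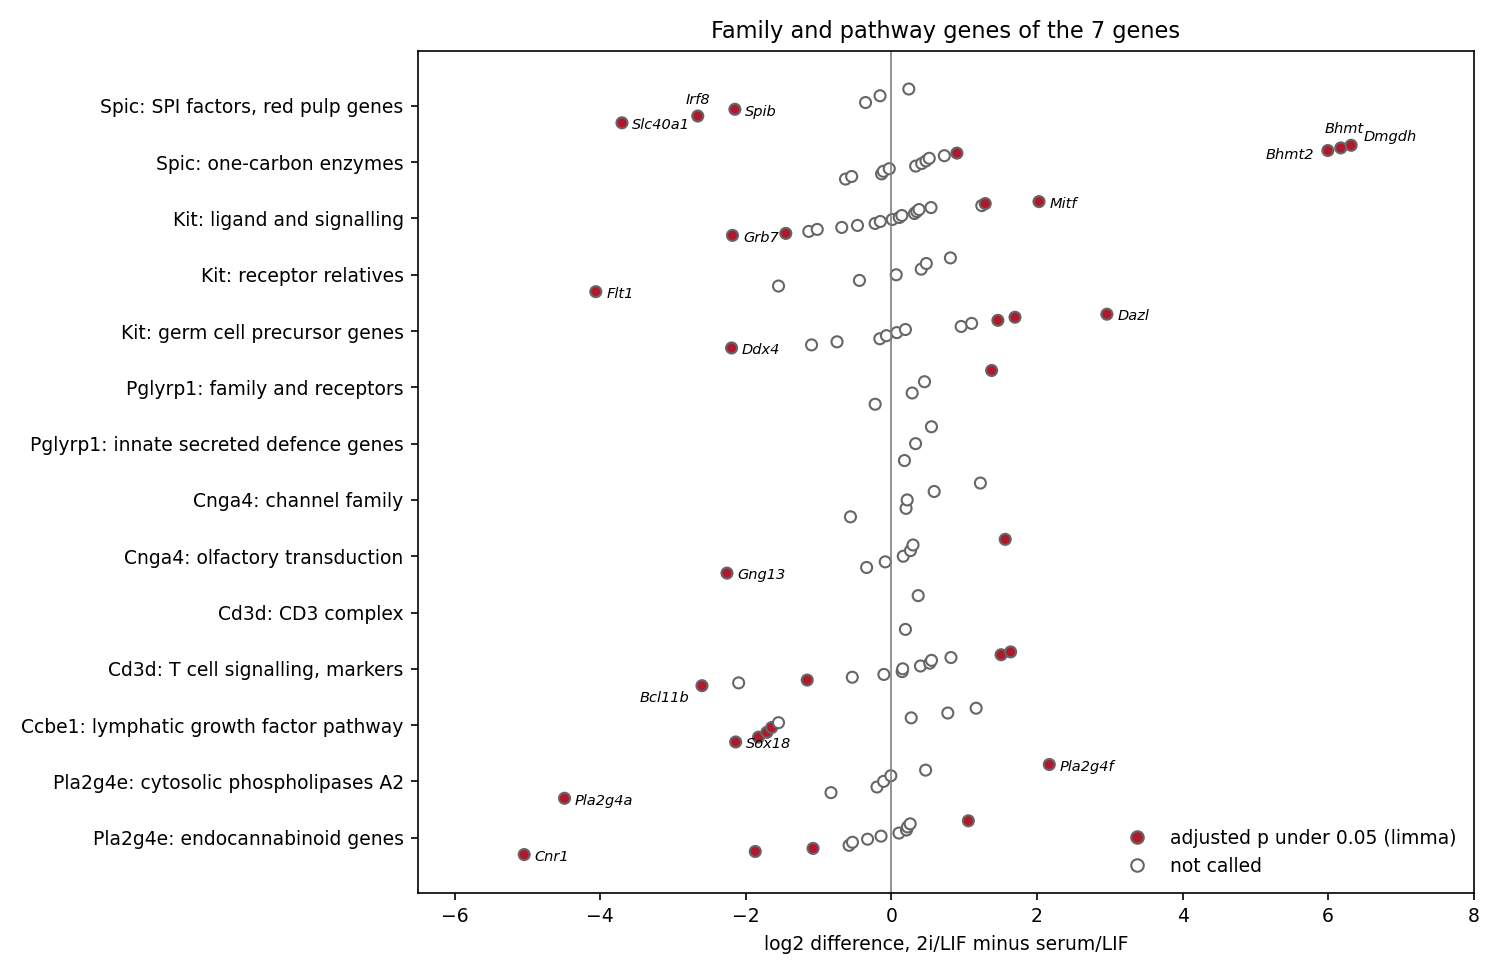
Log2 difference between 2i/LIF and serum/LIF (horizontal axis) for the 117 tested genes of the families and pathways of the 7 genes, by list, filled where adjusted p was under 0.05. Cnr1 and Bcl11b are drawn at the fitted value although their folds are bounds. Bhmt, Bhmt2 and Dmgdh stand to the right, and the lists of Spic relatives and of lymphatic genes have calls to the left alone.

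Taking the lists of family and pathway genes as a whole, 117 of 150 listed genes were tested and 15 rose and 18 fell in 2i/LIF against serum/LIF. That is 28.2% called, beside 16.7% of all genes. In 2i/LIF against KOSR/LIF 16 rose and 14 fell (25.6%, beside 14.7%), and in KOSR/LIF against serum/LIF 5 rose and 5 fell (8.55%, beside 4.58%). The first 2 comparisons share the 2i/LIF arrays. The calls went about equally in both directions, and the median log2 differences of the 117 genes were 0.15, -0.01 and 0.01. The lists were chosen with results of these arrays known, and no test of a list as a set was made.

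**Figure D5:**
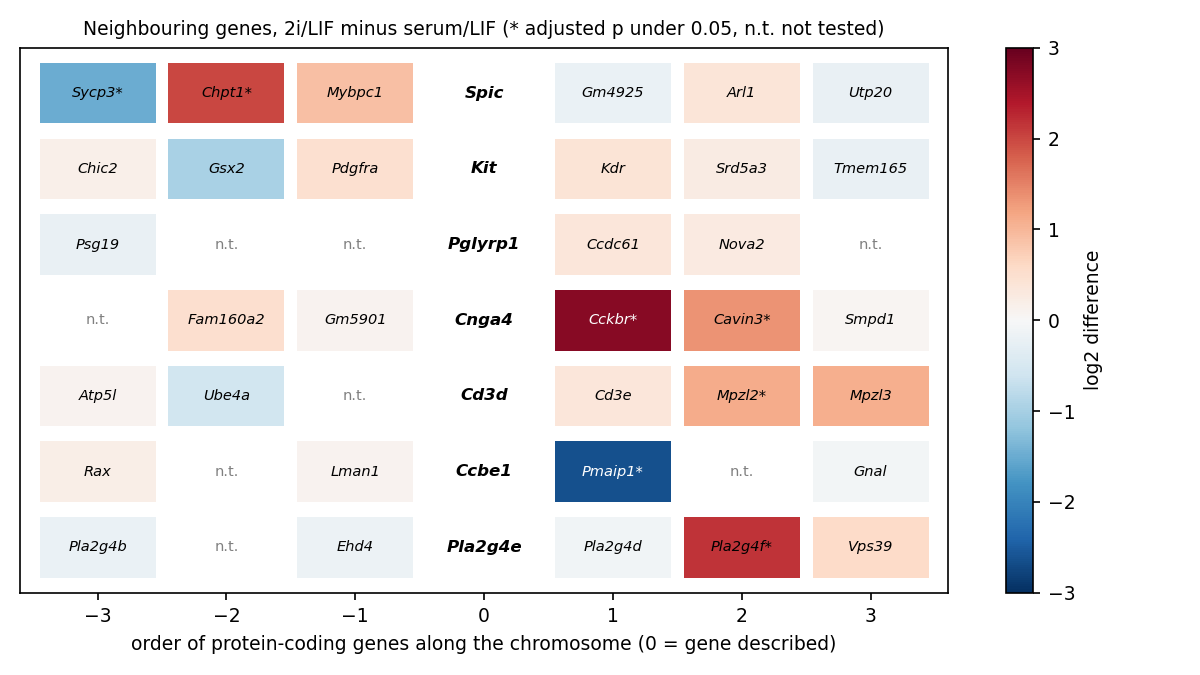
The 3 nearest protein-coding genes on each side of each of the 7 genes (horizontal axis, in gene order), coloured by the log2 difference between 2i/LIF and serum/LIF. Asterisks mark an adjusted p under 0.05, and n.t. marks genes not tested. Cckbr next to Cnga4 and Pla2g4f near Pla2g4e are the most strongly increased, and Pmaip1 next to Ccbe1 is lower.

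Genes lying beside the 7 genes on the chromosome were looked up in the RefSeq gene table. Among the 3 nearest entries on each side, which include noncoding genes, 18 of 42 were tested, and 3 rose and 1 fell in 2i/LIF against serum/LIF (22.2%, beside 16.7% of all genes). Counting protein-coding genes alone, a choice made after the data were seen, 34 of 42 were tested, and 5 rose and 2 fell (20.6%, near that share). Cckbr, a receptor for gastrin and cholecystokinin and the gene next to Cnga4, rose by 2.72 (adjusted p = 0.000116). Its levels were -0.41, -1.46, -1.59, -1.51 and -1.09 in 2i/LIF, against -3.82, -3.85 and -4.28 in KOSR/LIF and -4.28, -4.04 and -3.47 in serum/LIF. The 2i/LIF arrays of Cckbr lay above all others, as those of Cnga4 did, though replicate 2 was not its lowest. Cavin3, the caveola coat gene after Cckbr, rose by 1.34 (adjusted p = 0.0367). Pmaip1, which encodes the pro-apoptotic protein NOXA and adjoins Ccbe1, fell by 2.65 (adjusted p = 0.000558). Mpzl2, an adhesion protein gene after Cd3e, rose by 1.12 (adjusted p = 0.00288). Near Spic, the choline phosphotransferase gene Chpt1 rose by 2.00 (adjusted p = 0.00317) and Sycp3, of the meiotic chromosome axis, fell by 1.49 (adjusted p = 0.0314).

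The genes whose pattern was most like each of the 7 were found by the root mean square (RMS) difference of centred log2 levels over the 11 arrays. The 7 genes were chosen for this pattern, so the values are a description. Nearest to Spic were Serpinb1a (RMS 0.547), a serine protease inhibitor, Jakmip1 (0.578) and Jaml (0.605), a junctional adhesion protein. Jaml lies 4 protein-coding genes from Cd3d, a position looked up after its pattern was seen. Nearest to Kit were Sh3bp1 (0.274), D5Ertd605e (0.281) and the zinc transporter gene Slc39a11 (0.294). Nearest to Cd3d were the homeobox gene Crxos (0.652), the kisspeptin gene Kiss1 (0.722) and Bhmt2 (0.741). Cd3d and these 3 genes had KOSR/LIF means between those of 2i/LIF and serum/LIF. None of them was called in KOSR/LIF against serum/LIF by limma (adjusted p = 0.0523 to 0.105), so that order is a description of means. For Crxos the means were 5.71 in 2i/LIF, 2.19 in KOSR/LIF and -0.14 in serum/LIF.

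The genes most like Pglyrp1 were Ccbe1 (0.839) and then Cnga4 (1.12), and those most like Cnga4 included Pglyrp1 (1.12) and Ccbe1 (1.35). Pglyrp1 was also among the 3 genes most like Ccbe1, where Cnga4 was not, and the muscle troponin gene Tnni1 was among the 3 nearest for each of them. Tnni1 averaged 1.79 in 2i/LIF, against -3.16 in KOSR/LIF and -3.67 in serum/LIF. Its RMS difference from Ccbe1 was 0.585. Part of these patterns is signal below background in KOSR/LIF and serum/LIF. Nearest to Pla2g4e were Rasgrp1 (0.785), a RAS activator, Adgrg1 (0.908), an adhesion receptor, and Sall3 (1.02). Rasgrp1 averaged 0.64 in 2i/LIF, -3.94 in KOSR/LIF and -1.30 in serum/LIF, and Adgrg1 averaged 0.94, -4.13 and -0.92 in the same order. Each was well above background on 1 of 3 arrays of KOSR/LIF.

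Markers of blood cells in which Spic, Kit, Pglyrp1 and Cd3d are best known were measured as summed levels relative to the 75th percentile. The 6 macrophage markers on the array summed to 11.8 to 27.0 in 2i/LIF, 8.41 to 138 in KOSR/LIF and 12.7 to 13.8 in serum/LIF, and Lyz2 was well above background on 0 arrays. The value of 138 was KOSR/LIF replicate 3, where Itgam had a log2 level of 7.09. The 7 T cell markers summed to 11.3 to 14.7 in 2i/LIF, 12.2 to 17.6 in KOSR/LIF and 10.6 to 13.5 in serum/LIF, with Cd8a well above background on 1 array of 11. The 5 mast cell markers summed to 0.368 to 0.458 in 2i/LIF, 0.349 to 0.644 in KOSR/LIF and 0.310 to 0.421 in serum/LIF, and Cpa3 and Fcer1a were well above background on 0 arrays. The 8 neutrophil markers summed to 1.97 to 3.83 in 2i/LIF, 1.77 to 7.82 in KOSR/LIF and 1.82 to 1.97 in serum/LIF, with Ngp and S100a8 at 0 arrays. For these 4 lists the ranges of 2i/LIF and KOSR/LIF overlapped. Every 2i/LIF array was above every serum/LIF array in the neutrophil sum, the nearest at 1.973 and 1.966, and its part in the Pglyrp1 result was not tested. Of their tested genes 0 were called in 2i/LIF against serum/LIF by limma (0 at an unadjusted p under 0.05), beside 16.7% of all genes. Against KOSR/LIF 1 was called, the macrophage marker Cd14, which fell by 1.60 (adjusted p = 0.00753). The 7 fibroblast markers summed to less in 2i/LIF, at 0.472 to 1.79, against 6.51 to 12.5 in KOSR/LIF and 2.92 to 10.8 in serum/LIF, and the part of such cells in the results was not tested.

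The 18 naive pluripotency genes gave a reference for the medium. Against serum/LIF 2 rose and none fell (1 at an unadjusted p under 0.05), at a median of 0.23. Against KOSR/LIF 10 rose and none fell (0 at an unadjusted p under 0.05), at a median of 0.99. Shares of all genes were 6.74% higher and 9.98% lower against serum/LIF, and 5.95% and 8.72% against KOSR/LIF. The 7 genes, chosen for such differences, had medians of 5.47 against serum/LIF and 5.25 against KOSR/LIF as fitted, or 4.45 and 3.75 with dim signals raised.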

How the data were processed

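Per the labels' protocols, RNA was extracted with Qiagen RNeasy kits and labelled with Cy3 for Agilent one-colour arrays. The deposited scanner intensities are linear. Per the file headers, Feature Extraction 11.0.1.1 had subtracted the background. The authors' deposited value table also holds linear intensities, with column medians of 46.5 to 47.7, and its making is not given in the sources used.

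Averaging spots without outlier flags gave 55681 probes, and 33 lacking a usable spot on any 1 array were dropped. Of 29109 RefSeq probes, 27642 were named through a gene table of assembly GRCm38.p6. The array was designed on build mm9 per the file headers, so no coordinates of genes are given except for the promoters, which are on GRCm38.p6. Probes well above background on 3 arrays or more entered, and the brightest stood for its gene. The log2 intensities minus each array's 75th percentile went into 1 linear model over the 11 arrays (limma 3.58.1, R 4.3.3, two-sided). P-values were adjusted by Benjamini-Hochberg over 16279 genes at 0.05. Degrees of freedom were 8 (residual) and 3.52 (prior), and the median residual SD was 0.44 (log2). Precision is limited by the number of arrays. The gene test was checked on simulated data.

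A bound sets the brighter medium's mean against, per array of the dim one, the higher of its own signal and that of the dimmest detected probe. "Raised" values treat dim arrays likewise. A bound holds for the processing used and makes no allowance for the spread between arrays. Some alternatives gave differences below the bounds for Cnga4, Ccbe1 and Pla2g4e.

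The 7 genes, the related gene lists and the tests were chosen with earlier results of these data known. Of each list the text names up to 3 called genes in each direction with the largest change in 2i/LIF against serum/LIF, and partners needed beside them. It also names called neighbours and the 3 most alike genes, clone and locus symbols left out. A result on 1 such gene is not reported here. The alternatives were background correction (normexp, offset 50), quantile normalization, the authors' table, 2 other filters, the mean of probes, blocks for replicate number, line, scan day and slide, and leaving out each array. Normexp had been planned on mean signals and was run on median signals, which the files hold.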

Additional observations from a re-analysis of the deposited data

Results flagged for a closer look

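Within the 5 arrays of 2i/LIF, the genes named above were checked for a single array far from the others, by the gap to the nearest array over the whole range. Of 55 genes looked at 2 passed the critical value of 0.71, and chance gives about 1 in 20. Irf8 had a log2 level of -2.80 in 2i/LIF replicate 2, where the nearest other array had -4.88 (gap over range 0.786), and it was well above background on 2 of the 5 arrays. Kiss1, one of the genes most like Cd3d, had 0.38 in 2i/LIF replicate 4, where the nearest other array had 1.80 (0.778). None of the 7 genes described passed this check.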

How the results depend on the processing

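All 336 values of the 7 genes' differences between 2i/LIF and the other media, over the alternatives run, were above 0. The genes were picked for these increases on the same arrays, so that sign is a description and not a check. With normexp background correction the median difference of the 7 genes was 2.68 from serum/LIF and 1.90 from KOSR/LIF, where it had been 5.47 and 5.25. The median from serum/LIF was 4.31 in the authors' table and 4.45 with the mean of a gene's probes. The median from KOSR/LIF was 5.99 with quantile normalization, 6.17 with slide as a block, 6.31 within scan day 1 and 3.77 within scan day 2. Leaving out an array gave 4.91 to 6.0, the highest without KOSR/LIF replicate 3.

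In KOSR/LIF against serum/LIF the call on Pla2g4e was lost with normexp (-0.15, adjusted p = 0.825) and without serum/LIF replicate 1, and leaving out an array gave -3.61 to -2.5 (adjusted p = 0.00201 to 0.058). Cd3d passed with the line of the source names (2.33), scan day (3.09) or slide (3.27) as a block and within scan day 1 (3.05). Over its alternatives its adjusted p was 0.00536 to 0.458. The number of the 7 genes called was therefore 0 with normexp and 2 in those 4 settings, and 0 to 1 when an array was left out.

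Genes called with normexp numbered 1753 for 2i/LIF against serum/LIF, 1512 for 2i/LIF against KOSR/LIF and 371 for KOSR/LIF against serum/LIF (2722, 2388 and 745 otherwise). Within scan day 3 the single serum/LIF array is assumed to vary like the 2i/LIF arrays, and the first count was 1117, with 14 related genes (33 otherwise) and 1 neighbour (4 otherwise). With protein-coding neighbours only, 7 were called. Without a filter on dim probes 451 genes were called in KOSR/LIF against serum/LIF. Leaving out an array gave 225 to 915, with 395 and 386 without KOSR/LIF replicates 1 and 2, and 225, 331 and 391 without serum/LIF replicates 1, 2 and 3. The causes were not tested.

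With the replicate number as a block, 1408 genes were called in 2i/LIF against KOSR/LIF, 1929 in 2i/LIF against serum/LIF and 503 in KOSR/LIF against serum/LIF, and the calls on the 5 tested genes in the last comparison did not change. Deviations of same-numbered arrays correlated at -0.202 to 0.183 across genes, so the numbers do not pair the samples. The same number is mostly a different line in KOSR/LIF and serum/LIF, so pairing by line was not checked this way. The arrays' dim signals limit Cnga4, Ccbe1 and, in KOSR/LIF, Pla2g4e to bounds.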
